A study of Mus musculus with 12 samples.

Results

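The genes of the laminin and integrin subunits were followed through the first days of differentiation of mouse induced pluripotent stem cells (iPSCs), reprogrammed cells that can form all embryonic germ layers. A gene was included if its symbol was Lama, Lamb or Lamc with a number, Itga or Itgb with a number, or 1 of the named α chains of leukocytes, platelets and the vitronectin receptor. This gave 36 of the 19938 genes with a single symbol on the arrays: 10 laminin chains, 18 integrin α chains and 8 integrin β chains. Only Itgad had more than 1 probe set, and the brighter one was used. Laminin γ2 was not analysed here.

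The data are 12 one-colour Affymetrix gene arrays of total RNA, 3 in each of 4 groups. Sorted CPC day 4 cells were cardiac progenitors (CPCs) enriched by a fluorescence sort for the surface receptors FLK1 and PDGFRα. Cardiac day 4 cells had gone through an optimized cardiac differentiation without the sort, and spontaneous day 4 cells had differentiated spontaneously. The iPSC day 0 group was undifferentiated and is named as the control. No genotype, strain, cell line name or agent is given in the labels, except an abbreviation for the cardiac condition that is not interpreted. The comparisons ask how these chains differed between each day 4 population and the undifferentiated cells, and among the day 4 populations. Values are log2 signals, and 1 unit is a 2-fold difference. The labels do not say that replicates were separate cultures, so p-values measure only how these samples spread, and that spread may be technical.

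Laminins are cross-shaped trimers of 1 α, 1 β and 1 γ chain that polymerise into the basement membrane sheet under cells. Integrins are surface receptors of 1 α and 1 β chain that hold cells to laminin, fibronectin, collagen or other cells, and pass signals in both directions across the membrane. The α1β1γ1 laminin is the earliest laminin of the mouse embryo, α6β1 integrin is a main laminin receptor of pluripotent cells, and cells that form mesoderm leave a laminin-rich basement membrane and move over fibronectin.

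The genes of the sort gate did not follow the labels in all libraries. Kdr, which encodes FLK1, read 10.23, 6.25 and 6.03 in the libraries labelled sorted CPC, 5.42, 10.81 and 9.01 in the cardiac libraries, 9.83, 10.71 and 10.27 in the spontaneous libraries, and 5.50, 5.54 and 5.78 at day 0. Pdgfra, which encodes PDGFRα, read 11.13, 8.47 and 8.29 in the libraries labelled sorted CPC, against 8.75, 9.14 and 8.81 at day 0. The libraries labelled sorted CPC replicates 2 and 3 were thus near or below day 0 for both gate genes, and cardiac replicate 1 was near day 0 for Kdr. Of 8 pluripotency genes, 5 fell in the sorted CPC group, 5 in the cardiac group and 6 in the spontaneous group. Of 11 primitive streak and mesoderm genes, 2, 4 and 6 rose in the same groups. Results that rest on the 3 libraries are given with and without them, a choice added after seeing the data. Leaving out sorted CPC replicates 2 and 3 leaves 1 array in that group, so only sizes of differences are given for those fits.

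Promoters are shown for Itgb7, a member that fell in the spontaneous group, and for Lamb1, a chain of the α1β1γ1 laminin. RefSeq's promoter table matched 23 of the 36 members. Each sequence is the 250 bases before the annotated gene start on the gene's own strand, from RefSeq (GRCm38.p6). Capitals mark an ETS-type core (AGGAAG or its reverse complement CTTCCT) and a GC box (GGGCGG or CCGCCC), motifs that were chosen after the sequences were seen and searched on both strands.
Itgb7, chr15:102231936-102232185, minus strand: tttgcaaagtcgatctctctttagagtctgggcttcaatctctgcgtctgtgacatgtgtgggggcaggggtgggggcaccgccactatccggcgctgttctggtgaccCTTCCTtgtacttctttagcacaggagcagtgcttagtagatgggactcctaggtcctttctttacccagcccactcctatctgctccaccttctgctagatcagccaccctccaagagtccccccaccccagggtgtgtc
Lamb1, chr12:31265043-31265292, plus strand: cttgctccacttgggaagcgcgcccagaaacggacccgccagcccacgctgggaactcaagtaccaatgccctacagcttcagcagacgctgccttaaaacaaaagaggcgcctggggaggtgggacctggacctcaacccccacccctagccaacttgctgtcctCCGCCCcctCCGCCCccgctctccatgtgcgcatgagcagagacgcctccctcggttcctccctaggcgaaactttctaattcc
The Itgb7 promoter held 1 ETS-type core and 0 GC boxes, and the Lamb1 promoter held 0 and 2. Of 32851 promoters of this length, 29.5% held the ETS-type core and 32.7% the GC box, and the matches in these windows did not overlap. These matches describe the letters in the window and do not show binding.

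Most laminin and integrin genes, like most genes on the arrays, did not pass the test between day 4 and day 0. Those that passed were integrin genes that fell. Itga6, the α6 chain of laminin receptors, fell in the sorted CPC and the spontaneous group, and Itgb7, a β chain known from lymphocytes, fell in the spontaneous group. A gene was counted as passing at an adjusted p under 0.05 with a difference of at least 1 (limma, two-sided, Benjamini-Hochberg over 19938 genes). In the sorted CPC group 1 of 36 members (2.78%) passed, lower, where 2.11% of all genes passed in either direction and 1.32% were lower. In the cardiac group 0 of 36 passed, where 2.2% of all genes did. Without the minimum difference 3 members (8.33%) passed there, all lower, where 6.17% of all genes passed in either direction and 2.8% were lower. At an unadjusted p under 0.05 there were 6 (16.7%), all lower, where 22.4% of all genes passed in either direction and 11% were lower. In the spontaneous group 2 of 36 (5.56%) passed, both lower, where 3.57% of all genes passed in either direction and 1.57% were lower. Without the minimum difference 3 members passed in the sorted CPC group, 2 lower and 1 higher. Of all genes 5.11% passed there, 3.31% lower and 1.81% higher. In the spontaneous group 3 passed at that setting, all lower, where 9.75% of all genes passed in either direction and 4.29% were lower. The median difference of the members was 0.04 in the sorted CPC, -0.16 in the cardiac and -0.10 in the spontaneous group, beside 0.03, -0.05 and -0.03 over all genes. The 3 comparisons share the day 0 arrays, so their values are not independent. RNA of mixed cells cannot tell fewer cells of a type from less RNA per cell.

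**Figure D1:**
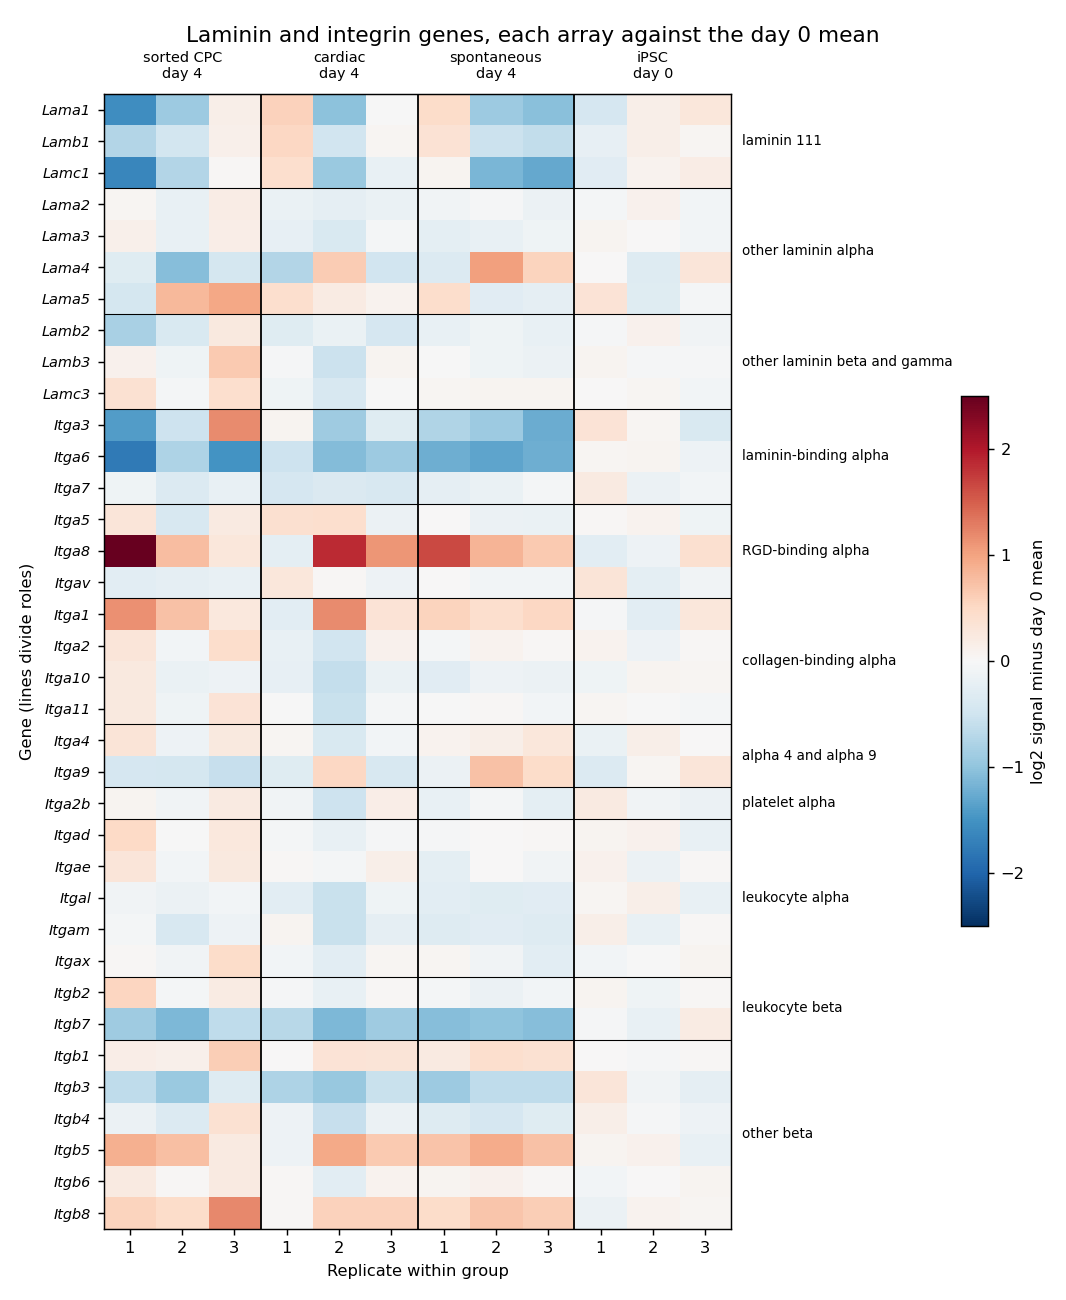
Signal of each of the 36 genes on each of the 12 arrays minus the gene's mean over the 3 day 0 arrays (colour, log2 units), with genes in rows by role and arrays in columns by group and replicate. Itga6, Itgb7 and Itgb3 are blue on all 9 day 4 arrays, while Itga8 and the chains of the α1β1γ1 laminin differ between replicates of a group.

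Itga6 encodes the α6 chain, which pairs with β1 or β4 to bind laminin. It read 7.88, 8.88 and 8.14 in the libraries labelled sorted CPC, 9.12, 8.56 and 8.74 in the cardiac libraries, 8.42, 8.33 and 8.43 in the spontaneous libraries, and 9.70, 9.71 and 9.51 at day 0. All 9 day 4 arrays were below the 3 day 0 arrays, and the sorted CPC libraries spread the most. The sorted CPC group was 2.53-fold lower than day 0 (log2 difference -1.34, SE 0.22, adjusted p 0.00398, limma). The spontaneous group was 2.38-fold lower (-1.25, SE 0.22, adjusted p 0.00443, limma). In the cardiac group the difference was -0.83 (95% interval -1.31 to -0.36, adjusted p 0.0414, limma), short of the minimum. Without the libraries labelled sorted CPC replicates 2 and 3, the 1 remaining sorted CPC array differed from day 0 by -1.76. Without cardiac replicate 1 as well, the cardiac difference was -0.99. The cardiac arrays were all above the spontaneous arrays for Itga6, with a difference of 0.41 (95% interval -0.06 to 0.89) that did not pass the test (adjusted p 0.999, limma).

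The β partners of the α6 chain did not pass the test. Itgb1, the β chain shared by most laminin, collagen and fibronectin receptors, read 10.59, 10.55 and 11.02 in the libraries labelled sorted CPC, 10.42, 10.75 and 10.75 in the cardiac libraries, 10.64, 10.83 and 10.80 in the spontaneous libraries, and 10.42, 10.39 and 10.44 at day 0. The sorted CPC and spontaneous arrays of Itgb1 lay above all day 0 arrays, by 0.30 and 0.34 on average, and neither difference passed the test (adjusted p 0.241 and 0.141, limma). Itgb4, the β chain of hemidesmosomes, lay between 6.21 and 7.17 on the 12 arrays. Itga3 and Itga7 encode the other laminin-binding α chains. Itga3 read 6.77, 7.64 and 9.34 in the libraries labelled sorted CPC, 8.23, 7.28 and 7.86 in the cardiac libraries, 7.41, 7.25 and 6.94 in the spontaneous libraries, and 8.50, 8.21 and 7.78 at day 0. The spontaneous arrays of Itga3 were all below day 0, by 0.97 on average, without passing the test (difference -0.97, adjusted p 0.244, limma). The sorted CPC libraries of Itga3 spanned both sides of day 0 (SD 1.31, n = 3), the largest SD of any member in any group. Their difference from day 0 was -0.25 with all arrays, 0.33 without sorted CPC replicate 1 and -0.96 without replicate 3. It was -1.40 for the 1 array left without replicates 2 and 3. Itga7, known from muscle, lay between 6.14 and 6.79.

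Itgb7 encodes the β7 chain of α4β7 and αEβ7, integrins that place lymphocytes in the gut. It read 6.25, 6.002 and 6.49 in the libraries labelled sorted CPC, 6.44, 6.01 and 6.25 in the cardiac libraries, 6.07, 6.13 and 6.07 in the spontaneous libraries, and 7.10, 6.95 and 7.34 at day 0. The day 0 arrays were all above the 9 day 4 arrays, and the day 4 groups overlapped. The spontaneous group was 2.05-fold lower than day 0 (log2 difference -1.04, SE 0.15, adjusted p 0.00182, limma). The difference was -0.88 in the sorted CPC group (adjusted p 0.0056, limma) and -0.90 in the cardiac group (adjusted p 0.00529, limma), both under the minimum of 1. The spontaneous difference of Itgb7 was -0.93 without iPSC replicate 3, which takes it below that minimum. Without cardiac replicate 1 the cardiac difference of Itgb7 reached the minimum and passed (adjusted p 0.00383, limma), and without sorted CPC replicate 3 the sorted CPC difference of Itgb7 was -1.01 and passed.

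The partners of β7 were dim. Itga4, whose product also pairs with β1 to bind VCAM-1, lay between 5.09 and 5.78, and Itgae between 5.08 and 5.63, both below the median of the array on all 12 arrays. The other leukocyte α chains Itgal, Itgam and Itgax, and their β chain Itgb2, were also below the median on every array, and Itgad lay between 5.93 and 6.62. Of Itga4, Itgae, Itgal, Itgam, Itgax and Itgb2, 0 of 6 passed in any comparison with day 0. Of 8 leukocyte markers, 1 passed in each day 4 group. Their mean log2 signal over 8 genes was 5.40 to 5.49 in the libraries labelled sorted CPC, 5.16 to 5.52 in the cardiac libraries, 5.36 to 5.39 in the spontaneous libraries and 5.77 to 5.87 at day 0. Of these 8 genes 6 were below the array median on all arrays. The gene that passed, lower in each group, was Laptm5, which encodes a lysosomal membrane protein of blood cells. Without Laptm5 the mean of the other 7 was 5.37 to 5.45 in the libraries labelled sorted CPC, 5.16 to 5.38 in the cardiac libraries, 5.32 to 5.34 in the spontaneous libraries and 5.45 to 5.49 at day 0, and the sorted CPC libraries then overlapped day 0. The defining leukocyte marker Ptprc stayed between 4.63 and 5.01 on all arrays, and the part of such cells in the Itgb7 difference was not tested.

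Itgb3 encodes the β3 chain of the vitronectin receptor αVβ3 and of the platelet receptor αIIbβ3. It read 6.26, 5.97 and 6.58 in the libraries labelled sorted CPC, 6.14, 5.95 and 6.34 in the cardiac libraries, 5.996, 6.26 and 6.26 in the spontaneous libraries, and 7.20, 6.82 and 6.68 at day 0. All day 4 arrays of Itgb3 were below day 0. The difference was -0.63 in the sorted CPC group (adjusted p 0.0615), -0.76 in the cardiac group (adjusted p 0.0266) and -0.73 in the spontaneous group (adjusted p 0.0218, limma), in each under the minimum. Its partner Itgav lay between 8.39 and 8.99 and its platelet partner Itga2b between 5.87 and 6.61, and neither passed in any comparison. The platelet markers Gp9, Pf4 and Ppbp were below the array median on all arrays and 0 of 3 passed.

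**Figure D2:**
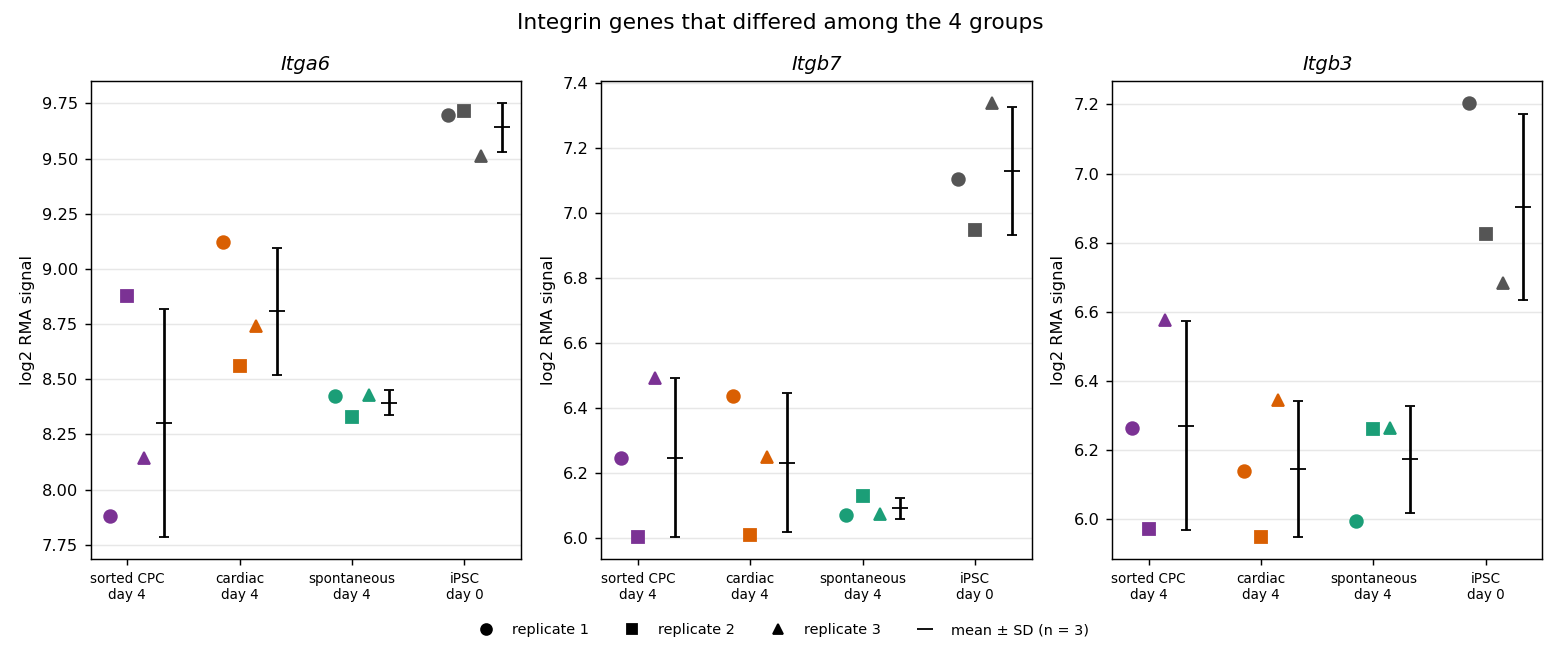
Log2 signal (vertical axis) of Itga6, Itgb7 and Itgb3 on each array, by group, with marker shapes for the replicates and bars for mean ± SD (n = 3). In each panel the 9 day 4 arrays lie below the 3 day 0 arrays.

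Over the 4 groups at once, 3 of 36 members differed (moderated F, adjusted p under 0.05), where 5.86% of all genes did. They were Itgb7 (adjusted p 0.00473, limma), Itga6 (adjusted p 0.00856, limma) and Itgb3 (adjusted p 0.0482, limma). Without iPSC replicate 1 or without iPSC replicate 2, Itgb7 was the only member left. Of the 12 fits with 1 array left out, Itgb3 passed in those without sorted CPC replicate 2 or replicate 3.

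The other chains of the fibronectin and vitronectin receptors did not pass the full test. Itgb8, the β chain of αVβ8, which activates latent TGF-β, read 6.06, 5.95 and 6.71 in the libraries labelled sorted CPC, 5.53, 6.08 and 6.08 in the cardiac libraries, 5.96, 6.19 and 6.11 in the spontaneous libraries, and 5.36, 5.59 and 5.55 at day 0. The sorted CPC difference of Itgb8 was 0.74 (adjusted p 0.0468, limma), under the minimum, and 0.55 for the 1 array left without replicates 2 and 3. Itgb5, the β chain of αVβ5, read 9.20, 9.08 and 8.55 in the libraries labelled sorted CPC, 8.19, 9.27 and 8.97 in the cardiac libraries, 9.03, 9.25 and 9.05 in the spontaneous libraries, and 8.39, 8.43 and 8.13 at day 0. For Itgb8, cardiac replicate 1 lay within the day 0 range and the other 8 day 4 arrays above it. Cardiac replicate 1 was also the only day 4 array of Itgb5 within the day 0 range, and the spontaneous difference was 0.79 (95% interval 0.27 to 1.32, adjusted p 0.0581, limma). Itga5, the α chain of the fibronectin receptor, lay between 8.27 and 9.10 on the 12 arrays. Itgb6, an epithelial partner of αV, was dim, between 3.70 and 4.20.

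Itga8, the α8 chain that binds nephronectin and fibronectin, had the highest difference of all members in each comparison with day 0 and did not pass in any with all arrays in the fit. It read 8.39, 6.60 and 6.10 in the libraries labelled sorted CPC, 5.58, 7.69 and 6.93 in the cardiac libraries, 7.48, 6.67 and 6.48 in the spontaneous libraries, and 5.57, 5.69 and 6.22 at day 0. Sorted CPC replicate 3 and cardiac replicate 1 lay within the day 0 range of Itga8, and the other 7 day 4 arrays lay above it. The difference was 1.21 in the sorted CPC group (95% interval -0.01 to 2.42, adjusted p 0.262), 0.91 in the cardiac group (adjusted p 0.354) and 1.05 in the spontaneous group (adjusted p 0.284, limma). Without the libraries labelled sorted CPC replicates 2 and 3, the 1 remaining array was 2.57 above day 0 for Itga8. Without cardiac replicate 1 as well, the cardiac difference of Itga8 was 1.49. Itga8 had the same order of arrays as Kdr in the sorted CPC and the cardiac libraries. Leaving out the libraries with low Kdr therefore takes out the lowest Itga8 arrays, and the larger differences are no separate support for a rise. The spontaneous difference of Itga8 passed in a fit of only the 6 arrays compared (adjusted p 0.0223, limma).

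Collagen-binding α chains and the remaining α chains did not pass the test. Itga1, the α1 chain of a type IV collagen receptor, averaged 6.33 ± 0.43 in the sorted CPC, 6.04 ± 0.73 in the cardiac, 6.12 ± 0.06 in the spontaneous and 5.62 ± 0.27 in the day 0 group (SD, n = 3 each). Its differences from day 0 did not pass the test. Itga2, Itga10 and Itga11 lay between 5.08 and 6.71 together over all arrays. Itga9, which binds tenascin C and VCAM-1 as α9β1, averaged 6.54 ± 0.09 in the sorted CPC, 6.95 ± 0.50 in the cardiac, 7.37 ± 0.46 in the spontaneous and 7.02 ± 0.33 in the day 0 group (SD, n = 3 each), and 0 of its comparisons passed.

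Arrays of a group and day 0 often did not overlap without a call. In the sorted CPC group 3 members were higher on every array than on every day 0 array, where 10.2% of all genes were, and 4 were lower, where 11.3% were. In the cardiac group 0 members were higher (12.8% of all genes) and 8 lower (16.2%). In the spontaneous group 5 members were higher (19.4%) and 10 lower (21.6%), among them Itga3, Itga10, Itgal, Itgam, Itgb4, Lama3 and Lamb2 beside the 3 described. The 95% interval of the difference from day 0 lay within 1 log2 unit of 0 for 23 members in the sorted CPC, 27 in the cardiac and 25 in the spontaneous group.

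**Figure D3:**
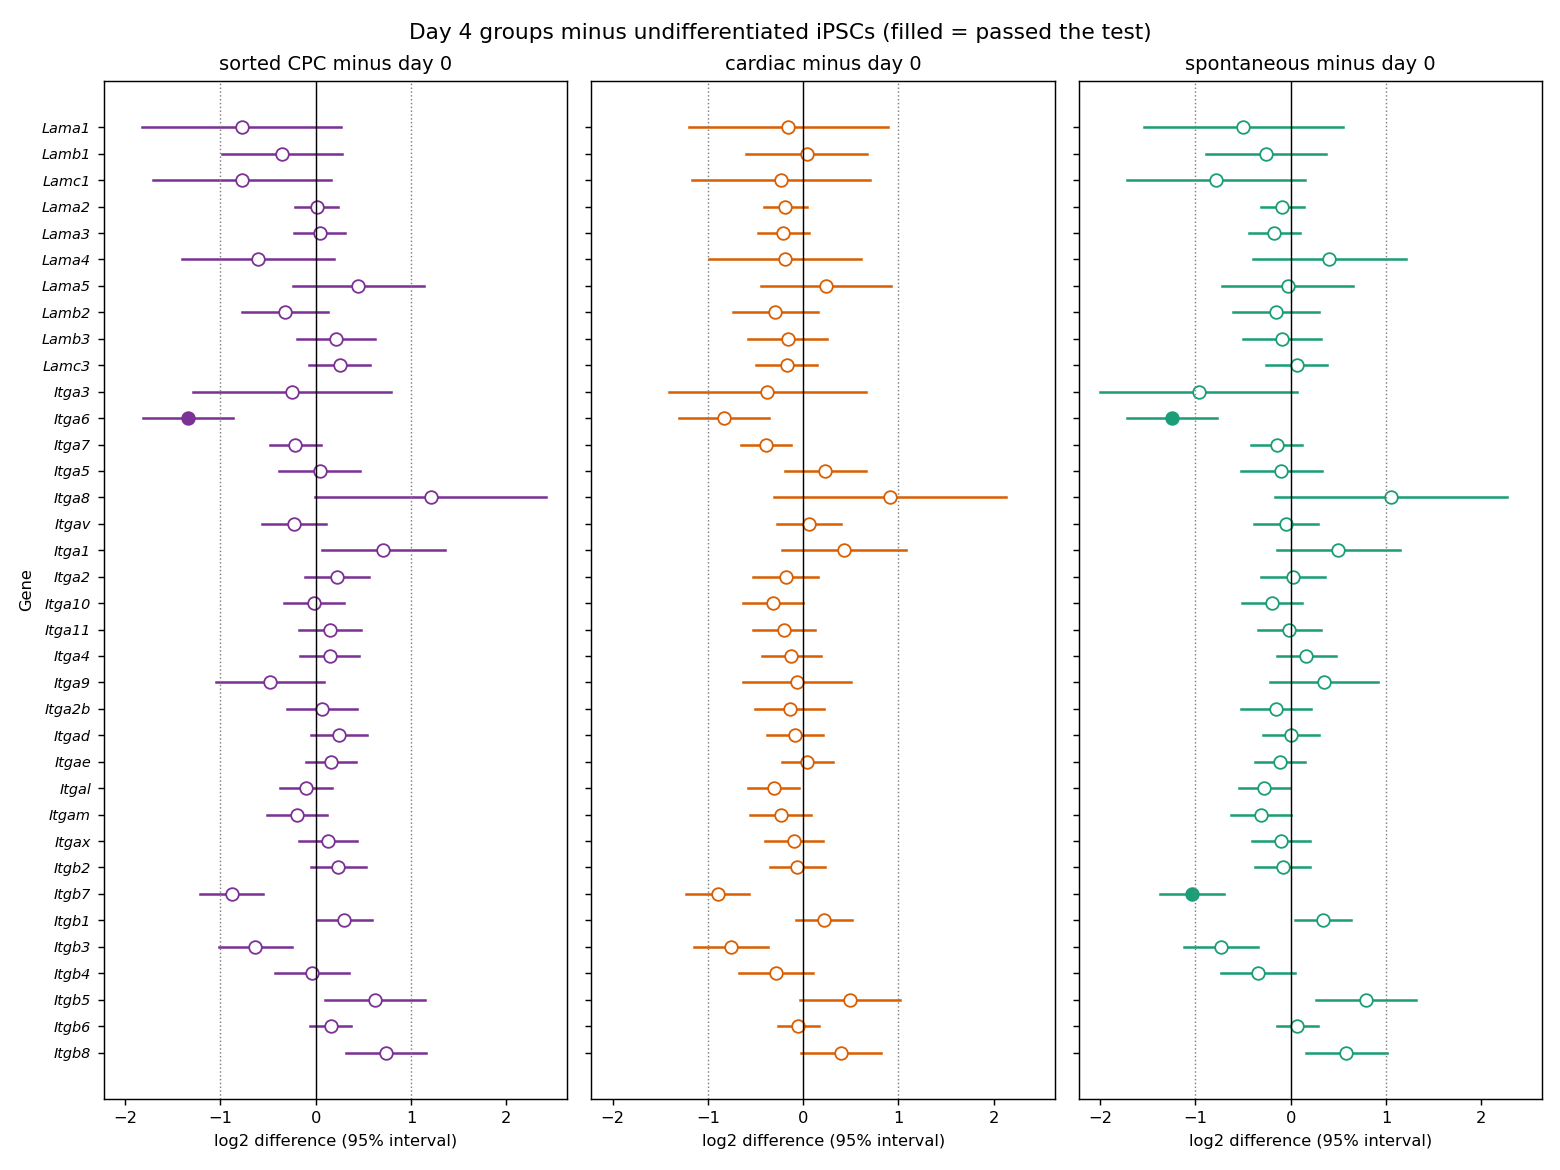
Difference of each day 4 group minus day 0 (log2 units, horizontal axis) for the 36 genes, with 95% intervals from the moderated fit, and filled points for genes that passed the test. Itga6 is filled in the sorted CPC and spontaneous panels and Itgb7 in the spontaneous panel, and the widest intervals belong to Itga8.

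Of the laminin genes, 0 of 10 passed in any comparison with day 0. The chains of the α1β1γ1 laminin were above the array median on all 12 arrays and spread widely among the replicates of each day 4 group. Lama1, its α chain, read 8.62, 9.25 and 10.31 in the libraries labelled sorted CPC, 10.74, 9.14 and 10.15 in the cardiac libraries, 10.63, 9.26 and 9.13 in the spontaneous libraries, and 9.75, 10.31 and 10.45 at day 0. Lamc1, its γ chain, read 8.95, 9.85 and 10.60 in the libraries labelled sorted CPC, 11.00, 9.64 and 10.39 in the cardiac libraries, 10.64, 9.43 and 9.30 in the spontaneous libraries, and 10.29, 10.67 and 10.77 at day 0. Lamb1, its β chain, read 10.09, 10.36 and 10.96 in the libraries labelled sorted CPC, 11.35, 10.35 and 10.87 in the cardiac libraries, 11.19, 10.29 and 10.21 in the spontaneous libraries, and 10.61, 10.97 and 10.88 at day 0. Each chain overlapped day 0 in each day 4 group. The differences of Lama1 from day 0 were -0.78 in the sorted CPC (adjusted p 0.431), -0.16 in the cardiac (adjusted p 0.858) and -0.50 in the spontaneous group (adjusted p 0.59, limma). Those of Lamc1 were -0.78 (adjusted p 0.367), -0.23 (adjusted p 0.766) and -0.79 (adjusted p 0.302, limma) in the same groups.

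The 3 chains kept a common order of the arrays within each day 4 group, a pattern noticed after the values were seen. Lama1, Lamb1 and Lamc1 were highest in sorted CPC replicate 3 and lowest in replicate 1, highest in cardiac replicate 1 and lowest in replicate 2, and highest in spontaneous replicate 1 and lowest in replicate 3. Col4a1 and Col4a2, which encode the type IV collagen chains of the same membrane, had these orders too. Kdr ran the opposite way in the sorted CPC libraries, where replicate 1 was highest and replicate 3 lowest, and in the cardiac libraries, where replicate 2 was highest and replicate 1 lowest. The SD of Lama1 was 0.85 in the sorted CPC, 0.81 in the cardiac, 0.83 in the spontaneous and 0.37 in the day 0 group (n = 3 each). In the spontaneous group 99.8% of all genes had a lower SD than Lama1. Parietal endoderm markers, a list that holds Col4a1 and Col4a2, averaged 8.15 to 8.25 in the libraries labelled sorted CPC, 8.19 to 9.01 in the cardiac libraries, 8.34 to 8.87 in the spontaneous libraries and 7.90 to 8.51 at day 0, with 0 of 7 called in each comparison with day 0. Without Col4a1 and Col4a2 the other 5 averaged 8.12, 8.17 and 7.86 in the libraries labelled sorted CPC, 8.57, 8.003 and 8.64 in the cardiac libraries, 8.54, 8.18 and 8.17 in the spontaneous libraries, and 7.63, 7.74 and 8.21 at day 0. Visceral endoderm markers averaged 7.14 to 8.03, 8.13 to 10.05, 7.01 to 8.06 and 6.72 to 6.93 in the same groups, and 6 of 10 rose in the cardiac group and 0 in the others. The mean of the 5 parietal markers was thus lowest in sorted CPC replicate 3, where the chains were highest. It was highest in cardiac replicate 3 and spontaneous replicate 1. Fst carried the low sorted CPC value, at 10.32, 9.72 and 6.93 in the libraries labelled sorted CPC. Of the others, Thbd and Sparc were highest in sorted CPC replicate 3, and Pth1r was about level in replicates 1 and 3. Plat was lowest in sorted CPC replicate 1. In the cardiac libraries Fst was lowest in replicate 1, where the chains were highest. Plat, Sparc and Pth1r had the order of the chains in the cardiac and the spontaneous libraries. Sparc had it in the sorted CPC libraries as well. Thbd was highest in replicate 3 of both the cardiac and the spontaneous group. The visceral list was highest in sorted CPC replicate 2, cardiac replicate 1 and spontaneous replicate 1, and the chains were highest in the last 2 of these. The part of such cells in the spread of the laminin chains was not tested.

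Without the libraries labelled sorted CPC replicates 2 and 3 the difference of the 1 remaining array from day 0 was -1.55 for Lama1, -0.73 for Lamb1 and -1.63 for Lamc1. A group of 1 array holds no spread of its own, so no call is given for these values.

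**Figure D4:**
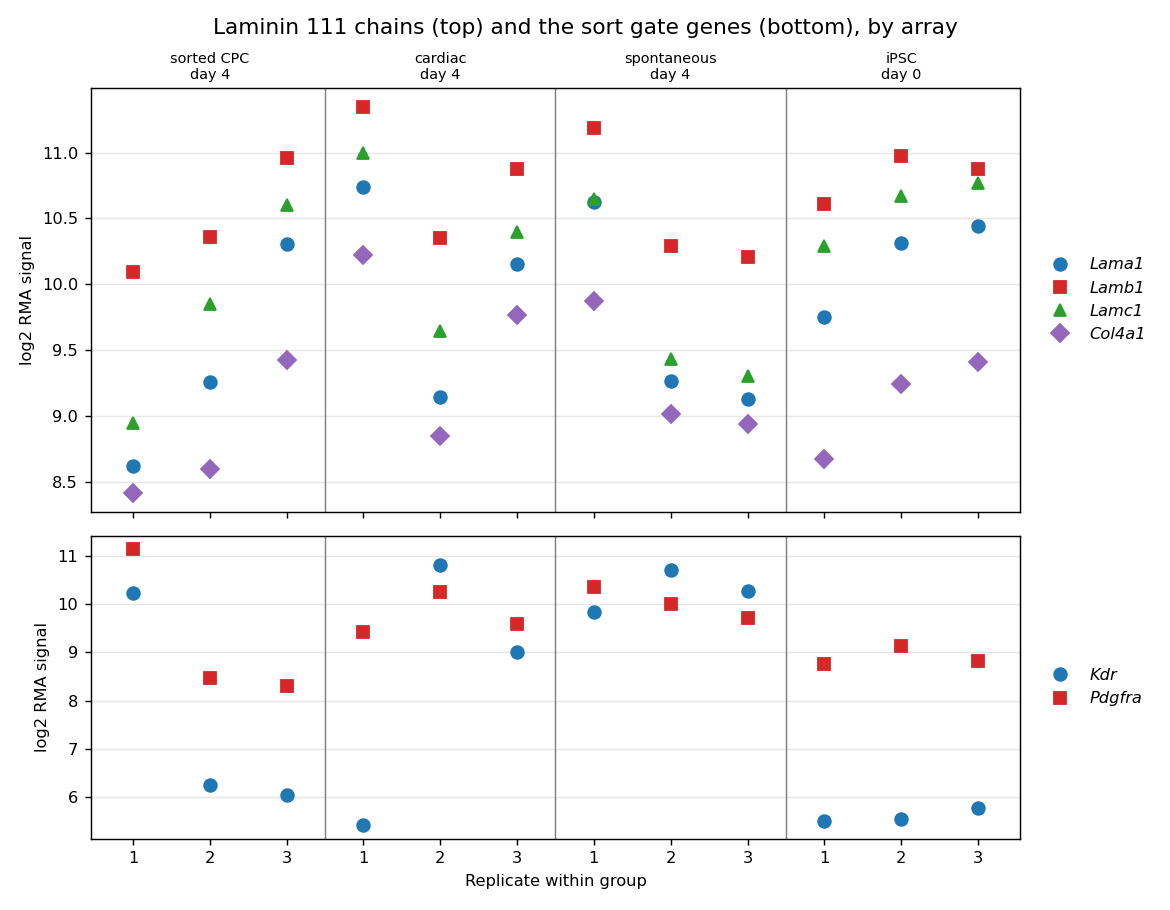
Log2 signal (vertical axes) on each array by group and replicate, for Lama1, Lamb1, Lamc1 and Col4a1 above and for the gate genes Kdr and Pdgfra below. Heights of different genes are not comparable, since each has its own probes. The upper genes move together between replicates, and Kdr is at 6.25 and 6.03 in sorted CPC replicates 2 and 3 and at 5.42 in cardiac replicate 1.

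The other laminin chains did not pass either. Lama5, the α5 chain of a laminin used to culture pluripotent cells, read 8.17, 9.41 and 9.56 in the libraries labelled sorted CPC, 9.02, 8.81 and 8.68 in the cardiac libraries, 9.04, 8.31 and 8.37 in the spontaneous libraries, and 8.95, 8.30 and 8.56 at day 0. The sorted CPC libraries of Lama5 thus lay on both sides of day 0, replicate 1 below and the other 2 above. Lama4, the α4 chain of vessel walls and muscle, read 5.46, 4.69 and 5.32 in the libraries labelled sorted CPC, 5.02, 6.40 and 5.29 in the cardiac libraries, 5.41, 6.78 and 6.31 in the spontaneous libraries, and 5.78, 5.44 and 6.06 at day 0. Lama2, the α2 chain of muscle laminin, and Lama3, an epithelial α chain, were below the array median on all arrays. Lamb2 lay between 7.54 and 8.60, Lamb3 between 5.89 and 7.08 and Lamc3 between 6.32 and 7.15.

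Among the day 4 groups, 0 of 36 members passed in any of the 3 comparisons. Over all genes 0% passed between the sorted CPC and the cardiac group, 0.00502% (1 gene) between the sorted CPC and the spontaneous group, and 0% between the cardiac and the spontaneous group (limma). At an unadjusted p under 0.05, 6 members differed between the sorted CPC and the cardiac group, where 15.7% of all genes did. Itga2, Itga11, Itgad, Itgb2 and Lamc3 were higher there in the sorted CPC group and Itga6 lower (log2 difference -0.51, 95% interval -0.98 to -0.03). In the sorted CPC against the spontaneous group there were 4 at that threshold, against 11.6% of all genes, with Itgae and Itgb2 higher and Itga9 and Lama4 lower. In the cardiac against the spontaneous group there were 0, against 3.73%. In the sorted CPC against the cardiac group 2 members were higher on every array (7.79% of all genes) and 2 lower (5.3%), and against the spontaneous group 2 were higher (9.44%) and 2 lower (10.2%). In the cardiac against the spontaneous group 1 was higher, Itga6 (5.23% of all genes), and 5 were lower, Itga4, Itga7, Itgad, Lama2 and Lamc3 (3.77%), with differences of -0.29 to -0.10. The 95% interval lay within 1 log2 unit of 0 for 30 members in the sorted CPC against the cardiac group, 30 in the sorted CPC against the spontaneous group and 31 in the cardiac against the spontaneous group.

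Around the chains, some genes of their partners passed the test. Of 15 basement membrane partners of laminin, 1 fell and 0 rose in the sorted CPC group, and 1 fell and 1 rose in both the cardiac and the spontaneous group. Over all genes 2.11%, 2.2% and 3.57% passed in either direction in the sorted CPC, cardiac and spontaneous groups. The gene that fell was Nid1, which encodes nidogen 1, the link between laminin γ1 and type IV collagen. It read 6.89, 7.53 and 7.07 in the libraries labelled sorted CPC, 8.90, 7.96 and 7.93 in the cardiac libraries, 7.96, 7.80 and 7.79 in the spontaneous libraries, and 9.60, 9.30 and 9.24 at day 0. All day 4 arrays of Nid1 were below day 0, with cardiac replicate 1 the nearest. Nid1 was 4.65-fold lower in the sorted CPC group (log2 difference -2.22, adjusted p 0.000544), 2.17-fold lower in the cardiac group (-1.11, adjusted p 0.0176) and 2.88-fold lower in the spontaneous group (-1.53, adjusted p 0.00244, limma). The cardiac call of Nid1 was lost without iPSC replicate 1 (adjusted p 0.077), iPSC replicate 2 (0.0545), cardiac replicate 2 (0.0778) or cardiac replicate 3 (0.0691, limma). The gene that rose was Pxdn, which encodes peroxidasin, the enzyme that crosslinks type IV collagen. Pxdn read 8.68, 8.64 and 8.36 in the libraries labelled sorted CPC, 9.21, 9.22 and 8.94 in the cardiac libraries, 9.08, 8.82 and 8.48 in the spontaneous libraries, and 7.71, 7.45 and 7.79 at day 0. All day 4 arrays of Pxdn were above day 0, by 0.91 in the sorted CPC (adjusted p 0.00858, under the minimum), 1.47 in the cardiac (adjusted p 0.000725) and 1.14 in the spontaneous group (adjusted p 0.00184, limma). Without spontaneous replicate 1 the spontaneous difference of Pxdn was just under the minimum, and without sorted CPC replicate 3 that of the sorted CPC group passed (adjusted p 0.00654, limma). Dag1, which encodes the laminin receptor dystroglycan, had differences of -0.25, -0.15 and -0.29 in the same groups and did not pass.

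Of 20 other integrin ligands, 4 fell and 0 rose in the sorted CPC group, 3 fell and 0 rose in the cardiac group, and 4 fell and 1 rose in the spontaneous group. Over all genes 1.32%, 0.943% and 1.57% fell and 0.787%, 1.26% and 1.99% rose in the same groups. Icam1, Vcam1 and Tnc fell in all 3. Icam1, the ligand of the β2 integrins, read 7.21, 7.64 and 7.63 in the libraries labelled sorted CPC, 8.18, 7.27 and 7.56 in the cardiac libraries, 7.14, 7.31 and 7.36 in the spontaneous libraries, and 9.66, 8.97 and 8.90 at day 0. Icam1 was 3.21-fold lower in the sorted CPC group, 2.84-fold lower in the cardiac group and 3.75-fold lower in the spontaneous group (adjusted p 0.0021, 0.00352 and 0.00074, limma). Vcam1, the ligand of α4β1 and α9β1, was 2.36-fold, 2.74-fold and 2.81-fold lower in the same groups (adjusted p 0.00402, 0.00154 and 0.00111, limma). Without iPSC replicate 1 the sorted CPC difference of Vcam1 was below the minimum (adjusted p 0.00668, limma). Tnc, which encodes tenascin C, had log2 differences of -1.33, -1.22 and -1.12 (adjusted p 0.00277, 0.00409 and 0.00515, limma), and the spontaneous one fell short of the minimum without iPSC replicate 3. Ccn2, a matrix protein gene, fell in the spontaneous group (-2.20, adjusted p 0.0146, limma), and its other differences were -1.40 in the sorted CPC group (adjusted p 0.132, limma) and -1.64 in the cardiac group (adjusted p 0.0675, limma). The spontaneous call of Ccn2 was lost without iPSC replicate 1 (adjusted p 0.0596), iPSC replicate 2 (0.0607) or spontaneous replicate 2 (0.0589, limma). Without the libraries labelled sorted CPC replicates 2 and 3, the 1 remaining array differed from day 0 by -2.98 for Ccn2. That array was the lowest of the group, at 8.13 against 10.18 and 10.79. Without sorted CPC replicate 3 alone Ccn2 passed in the sorted CPC and the cardiac group (adjusted p 0.0215 and 0.0238, limma). Without sorted CPC replicate 1 Ccn2 passed in the cardiac group (adjusted p 0.00152, limma). Mfge8, an RGD protein that binds αVβ3 and αVβ5, fell in the sorted CPC group (-1.23, adjusted p 0.0119, limma), a call lost without iPSC replicate 1 (-0.96, adjusted p 0.0506, limma) or sorted CPC replicate 1 (-0.99). Fbn2, which encodes fibrillin 2, rose in the spontaneous group (1.23, adjusted p 0.0402, limma), a call lost without any 1 of the iPSC or spontaneous arrays or cardiac replicate 3 (adjusted p 0.0591 to 0.161, limma). Fn1, which encodes fibronectin, did not pass and read 12.52, 10.58 and 9.51 in the libraries labelled sorted CPC, 10.32, 12.27 and 11.19 in the cardiac libraries, 11.91, 12.02 and 11.78 in the spontaneous libraries, and 11.47, 10.87 and 10.47 at day 0.

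Of 9 fibroblast and feeder cell markers, 1, 2 and 2 fell in the sorted CPC, cardiac and spontaneous groups, with Dcn, which encodes decorin, in each. Their mean log2 signal was 5.91 to 6.12 in the libraries labelled sorted CPC, 5.93 to 6.08 in the cardiac libraries, 6.08 to 6.21 in the spontaneous libraries and 6.35 to 6.90 at day 0. Col1a2 was the other gene that fell in the cardiac and spontaneous groups (spontaneous difference -1.01, adjusted p 0.0149, limma). Without the minimum difference 3, 4 and 4 of the 9 were lower in the same groups, where 3.31%, 2.8% and 4.29% of all genes were. The rest did not pass the full test. Among them was Lum, which encodes lumican and averaged between 3.24 and 3.36 in the 4 groups, below the array median on all 12 arrays. Dcn read 8.39, 6.95 and 8.27 at day 0, and Vcam1 read 6.91, 5.90 and 6.16 on the same arrays, both lowest in replicate 2. Tnc was also lowest in that replicate, at 6.51, against 7.14 and 7.35. Icam1, Ccn2 and Mfge8 were lowest in day 0 replicate 3 instead. The part of such cells in the fall of Icam1, Vcam1 and Tnc was not tested.

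Of 32 integrin activators and adaptors, 1 rose and 1 fell in the sorted CPC group, 0 passed in the cardiac group, and 2 rose and 0 fell in the spontaneous group. The shares of all genes that passed in either direction were 2.11%, 2.2% and 3.57% in these groups. Ilk, which encodes integrin-linked kinase, the adaptor that ties β chains to actin, read 9.58, 9.74 and 10.68 in the libraries labelled sorted CPC, 9.71, 10.03 and 9.80 in the cardiac libraries, 9.88, 10.11 and 10.06 in the spontaneous libraries, and 8.66, 8.92 and 9.11 at day 0. All day 4 arrays of Ilk were above day 0. It rose in the sorted CPC group (1.11, adjusted p 0.0155, limma) and the spontaneous group (1.12, adjusted p 0.0104, limma), and its difference in the cardiac group was 0.95 (adjusted p 0.031, limma), which passed without iPSC replicate 3 (adjusted p 0.0473) or cardiac replicate 1 (adjusted p 0.0348, limma). Without the libraries labelled sorted CPC replicates 2 and 3, the difference of Ilk on the 1 remaining sorted CPC array was 0.69. Without iPSC replicate 1, Ilk passed in neither the sorted CPC (adjusted p 0.079) nor the spontaneous group (adjusted p 0.0511, limma). The sorted CPC call of Ilk was also lost without iPSC replicate 2 (adjusted p 0.0527) and without sorted CPC replicate 3 (difference 0.77), and the spontaneous one without spontaneous replicate 2 (adjusted p 0.0512, limma). Parvb, which encodes the ILK partner β-parvin, fell in the sorted CPC group (-1.05, adjusted p 0.00402, limma) and was at -0.80 without replicates 2 and 3, at -0.87 without replicate 2 and at -0.93 without iPSC replicate 2. Tgfb1i1, a focal adhesion adaptor gene, rose in the spontaneous group (1.13, adjusted p 0.0483, limma), a call lost without any 1 of the iPSC arrays, spontaneous replicate 2 or 3 or cardiac replicate 3 (adjusted p 0.0661 to 0.189, limma). Tln1, which encodes talin, the protein that switches integrins on, did not pass. The library labelled sorted CPC replicate 3 was the highest of all 12 arrays for Ilk, Tln1, Itgb1, Itgb8 and Itga3. That was not particular to these genes. It was also the highest for Lama5, Lamb2, Lamb3 and Lamc3, and for dim chains such as Itgb6 and Lama2. The share of all genes that were highest on this array was not counted. Of 4 smooth muscle markers 1 rose in the sorted CPC group and 0 in the others. Their mean was 6.80, 7.10 and 8.83 in the libraries labelled sorted CPC, 6.33 to 7.12 in the cardiac libraries, 6.94 to 7.68 in the spontaneous libraries and 6.24 to 6.71 at day 0, and Cnn1 was the gene that rose (1.59, adjusted p 0.0127, limma). The part of such cells in these values was not tested.

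**Figure D5:**
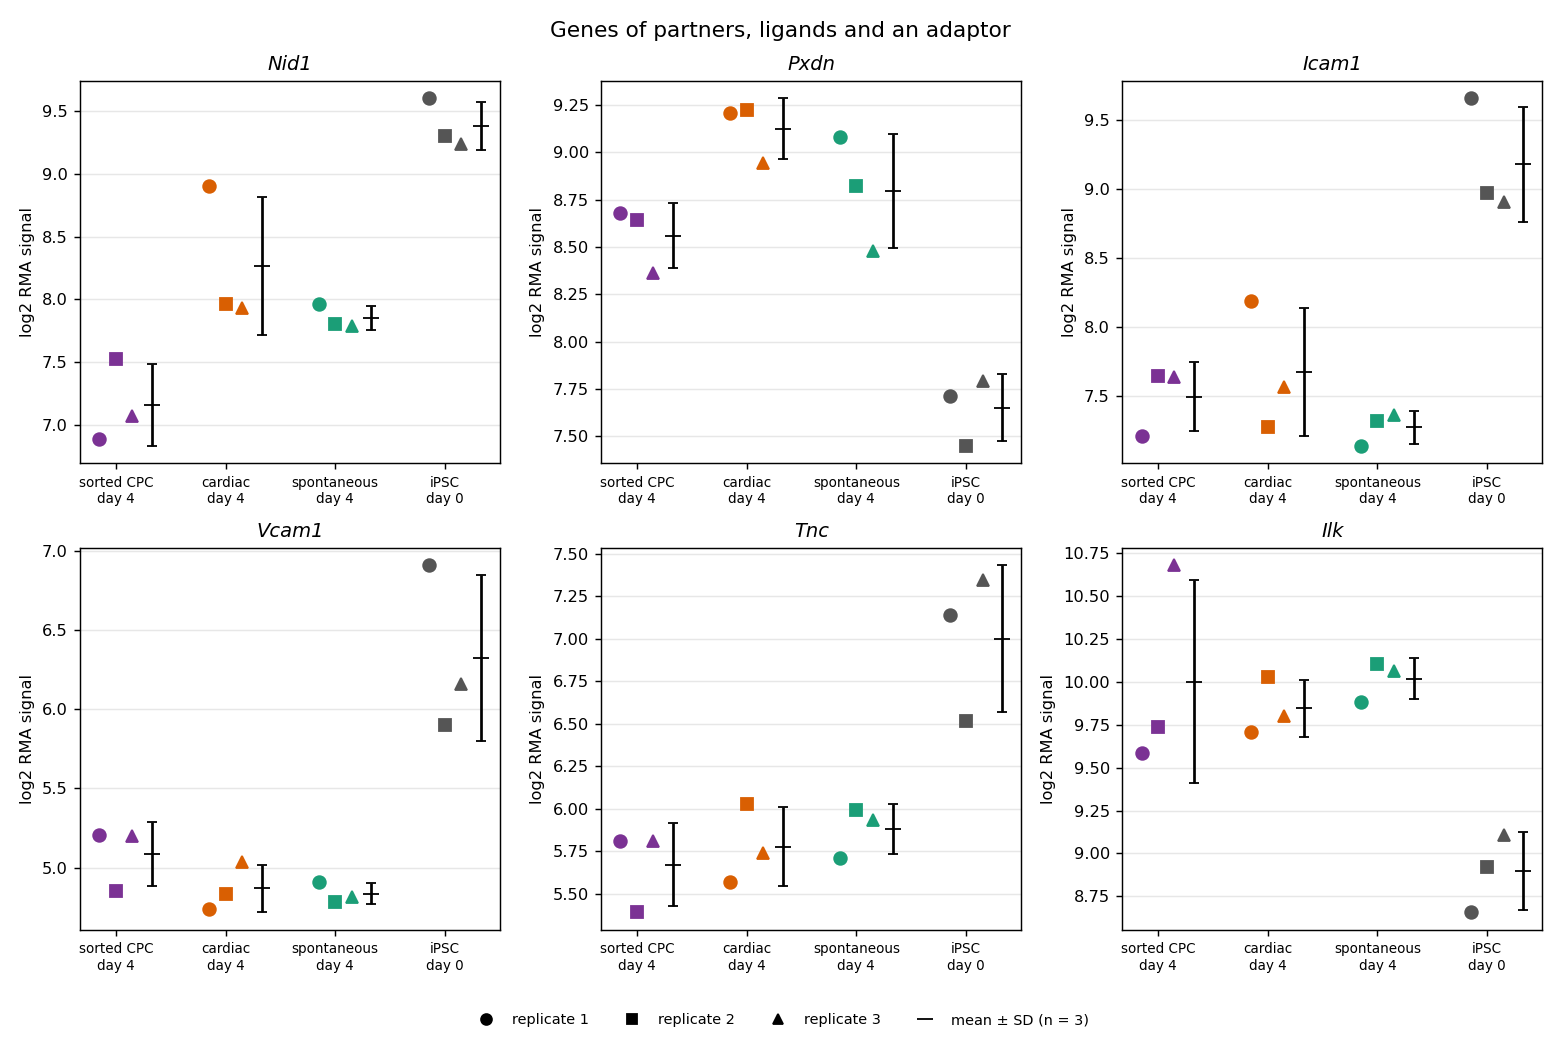
Log2 signal (vertical axis) of Nid1, Pxdn, Icam1, Vcam1, Tnc and Ilk on each array, by group, with marker shapes for the replicates and bars for mean ± SD (n = 3). Nid1, Icam1, Vcam1 and Tnc lie below day 0 on all 9 day 4 arrays, and Pxdn and Ilk above it.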

How the data were processed

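Total RNA of 12 mouse samples was measured on Affymetrix gene arrays. The deposited table held log2 signals, for which the submitters' processing notes name RMA and Affymetrix Expression Console 1.3.1. RMA equalises the distributions of the arrays. The log base was inferred from the range of the values (1.87 to 13.87). The probe genome build was not given in the sources used here. The number of arrays, not read depth, limits the precision.

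Of 35557 probe sets, 21789 had 1 gene symbol in the platform annotation, 1621 had several and 12147 were not listed. Only those with 1 symbol were used, and the brightest probe set of a gene was kept, which left 19938 genes. Members and gene lists were chosen with earlier results of these data known.

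A linear model in limma 3.58.1 under R 4.3.3 gave each group a mean over all 12 arrays and the prior variance an intensity trend (8 residual and 5.01 prior degrees of freedom). Values of p for the 6 comparisons and for a moderated F over the 4 groups were adjusted (Benjamini-Hochberg) over 19938 genes. Each SD is over the 3 arrays of 1 group. The model was tested on simulated data.

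Any member may be named. Every array's value is given for members that passed a comparison or the F test, and for chains they pair with. From each list the rule named up to 6 called genes and up to 3 uncalled ones with the highest mean. Further array values (such as those of Itga3, Itga8, Itgb5, Itgb8, Lama4 and Lama5) were chosen after they were seen. So were Dag1, Ptprc, Lum, Fst, Thbd, Pth1r and Plat. The alternatives were the replicate block, no intensity trend, array weights, dim genes left out, probe sets averaged, median centring, cyclic loess, only the arrays compared, no minimum difference and each array left out.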

Additional observations from a re-analysis of the deposited data

How the results depend on the processing

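Itga6 passed in the sorted CPC and the spontaneous group under every alternative run, with differences from day 0 of -1.76 to -1.13 in the sorted CPC group and -1.36 to -1.21 in the spontaneous group. The number of members that passed in the sorted CPC group was 1, and it was 3 with no minimum difference, 3 without the libraries labelled sorted CPC replicates 2 and 3 (Itga3 and Itga6 lower, Itga8 higher), 5 without cardiac replicate 1 as well (Itga1 and Lamc1 added), and 1 to 2 with any 1 array left out. In the cardiac group the number of members was 0, where 2.2% of all genes passed. It was 3 with no minimum difference (6.17% of all genes) and 0 to 1 with any 1 array left out (1.42% to 3.28%). In the spontaneous group it was 2, where 3.57% of all genes passed, and 3 with no minimum difference (9.75% of all genes, Itgb3 added). With only the 6 arrays compared it was 3 (4.15% of all genes), with Itga8 added, higher. It was 1 with array weights (4.43%), 1 with cyclic loess (3.29%) and 1 to 2 with any 1 array left out (2.16% to 3.87%). Itgb7 was the call lost there, with a difference of -0.98 under array weights and under cyclic loess. Over the 4 groups 3 members differed, 8 did with array weights, 6 without the 2 and 11 without the 3 libraries, and 1 to 3 with any 1 array left out. Over all genes the F test called 1169 (5.86%), and 4669 (23.4%) with array weights. The sorted CPC difference of Itga3 was -0.25 with all arrays, and -0.96 to 0.33 with any 1 array left out, reversed without sorted CPC replicate 1. No other single-gene difference that was followed through the alternatives changed sign. The small cardiac differences of Lama1 and Lamc1 from day 0 were not among those followed. Both turn from negative to positive without cardiac replicate 2. With the replicate number as a block, 1, 0 and 2 members passed in the sorted CPC, cardiac and spontaneous groups, as without it, and 2 differed over the 4 groups. Same-numbered arrays correlated between -0.38 and 0.31 in their deviations from the group means, and arrays with different numbers between -0.465 and 0.3. No clear pairing by number was seen. With 3 arrays in a group these few values cannot exclude it. Only 24 members were bright enough to be tested with dim genes left out. Between the day 4 groups 0 members passed under every alternative run. The causes of these changes were not tested. With 3 arrays in a group, and SDs up to 1.31 in the libraries labelled sorted CPC, differences under 1 log2 unit were often not resolved.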
